A study of Arabidopsis thaliana with 16 samples.

Results

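Unannotated antisense loci are stretches of the genome where RNA was assembled on the strand opposite to an annotated gene, at places where no annotated gene lies on the strand of the RNA itself. They were taken from the assembled loci on chromosomes 1 to 5 with a set strand whose exons overlapped no TAIR10 gene on their own strand and overlapped, by at least 1 base, the span of a gene on the other strand, called the host gene here. The rule used positions only. It gave 260 of 20880 loci in the zeocin experiment and 349 of 22818 loci in the UV-C experiment, 609 of 43698 in all. The positions came from each experiment's own assembly, so a locus is present only where RNA was assembled. RNA found in treated libraries alone could be enough. Wild-type Arabidopsis thaliana seedlings (Col-0), grown in vitro for 15 days, were exposed to zeocin at 200 microg/ml for 3 h (5 libraries) or to mock treatment (5 libraries). In a separate experiment, Col-0 seedlings of the same age received 8 kJ/m2 of UV-C (3 libraries) or mock treatment (3 libraries). Zeocin, a drug of the bleomycin family, causes double-strand breaks, and UV-C joins neighbouring pyrimidines. The aim given for the series was to find long non-coding RNAs that take part in double-strand break repair. The labels do not say how long after UV-C the seedlings were harvested, whole seedlings mix all cell types, and fewer cells of a type cannot be told apart from less RNA per cell.

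Antisense RNAs are transcripts read from the strand opposite to a gene. In plants they can start at the 3′ end of the gene, from a promoter shared with a divergent neighbour, or by read-through of an upstream gene on the same strand, and many are short-lived because the nuclear exosome and 5′ to 3′ exonucleases degrade them. Some act on their host gene, as at FLC, where antisense RNAs help to silence a repressor of flowering, and at DOG1, where an antisense RNA limits expression of a seed dormancy gene.

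Totals per library ranged from 31185080 to 44536500 fragments after zeocin and from 31329853 to 41488445 in its mock, and from 27973871 to 30014943 after UV-C and from 32161555 to 37507136 in its mock. Plastid loci took 37.0% to 40.5% of the counts after UV-C and 44.2% to 46.8% in its mock. The leaf markers RBCS1A, LHCB1.3 and CA1 and the root markers CASP1, PHT1;1 and NRT2.1 were all measured, and no locus held the pollen genes VGD1 and VGDH1. The root gene PHT1;1, a phosphate transporter, fell in both comparisons. It averaged 52.4 CPM after zeocin and 142 CPM in its mock, and 9.82 CPM after UV-C and 22.6 CPM in its mock. NRT2.1 fell in both as well and CASP1 after zeocin, while CASP1 had 5.36 CPM after UV-C and 8.44 CPM in its mock (adjusted p = 0.261, edgeR). After UV-C the leaf genes RBCS1A and LHCB1.3 fell by 0.77 and 0.51 on the log2 scale and CA1 rose by 0.32, and none of the 3 was called after zeocin. The part of these differences in the antisense results was not tested. Nothing in the labels says that replicates came from separate cultures, so p-values measure the spread between these libraries, which may be technical.

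The antisense loci were short and mostly unspliced. Their median exonic length was 668 bases in the zeocin table, where all loci had a median of 1443 bases, and 666 bases in the UV-C table, where all loci had a median of 1245 bases. A single exon made up 213 of the 260 zeocin loci (81.9%) and 294 of the 349 UV-C loci (84.2%), against 17.7% and 26.1% of all loci. The assemblies accepted no transcript under 200 bases, so shorter antisense RNAs are not among them. The longest open reading frame had a median of 44 codons in either table and reached 100 codons in 23 zeocin and 22 UV-C loci. The longest of these, 333 codons, lay in the RNA opposite AT5G55680, which is annotated as a glycine-rich protein gene.

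Most often the RNA lay wholly inside the host gene, at 133 zeocin and 170 UV-C loci. A further 63 and 66 started inside the host and ran past its 5′ end, 36 and 70 started beyond its 3′ end and stopped inside it, and 28 and 43 spanned the whole host. The host was a protein-coding gene for 179 zeocin and 258 UV-C loci, a long non-coding RNA gene for 29 and 37, and a pseudogene for 36 and 26. Host genes mostly had no assembled locus of their own: this held for 209 of 260 zeocin loci (80.4%) and 285 of 349 UV-C loci (81.7%). None of 40 DNA damage and repair genes searched for as hosts had an unannotated antisense locus in either table.

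**Figure D1:**
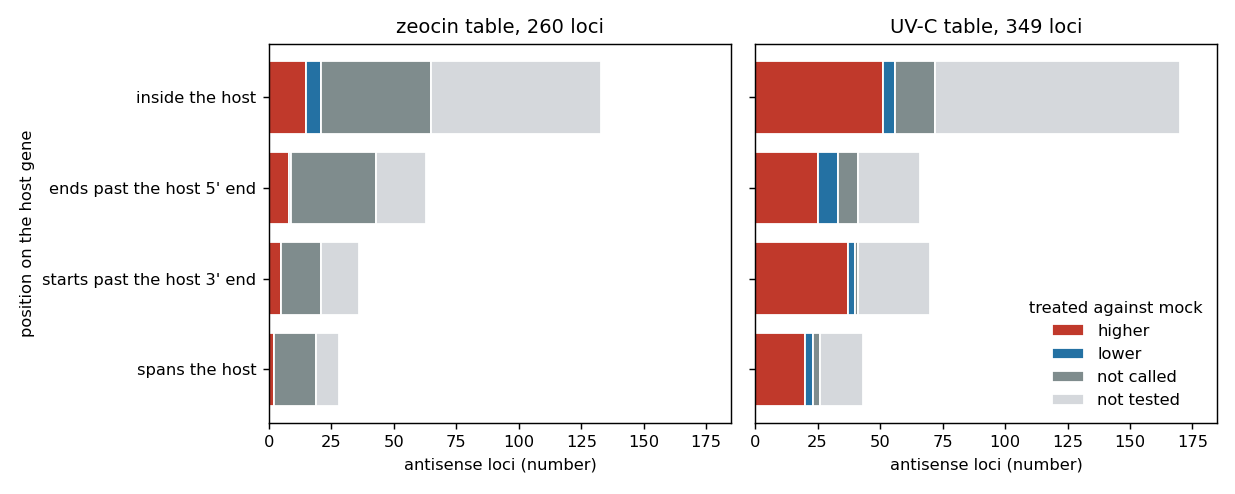
Number of antisense loci (x axis) by position on the host gene (y axis) in the zeocin table (left) and the UV-C table (right), with bar segments for loci called higher, called lower, not called and not tested in treated against mock libraries. Loci inside the host form the longest bar of each table, 133 and 170 loci, and the segment called higher is longer in every class of the UV-C table than in the zeocin table.

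Spliced antisense RNAs carried introns of their own. There were 62 introns in 47 spliced zeocin loci and 63 in 55 spliced UV-C loci, of which 60 and 59 began with GT and ended with AG on the antisense strand. Borders of CT and AC, which GT and AG give when read on the other strand, were found at 0 zeocin introns and 1 UV-C intron. That intron, of 45 bases, lies in the locus opposite AT1G30814, one of the 12 named UV-C rises, whose other intron has GT and AG. In either experiment 1 intron coincided with a host intron, and single-exon loci have no borders to read. The borders of 4 introns with GT and AG, from loci among the named rises, are shown to give the letters of such borders. Each line gives 15 exon and 15 intron bases from TAIR10.1 (RefSeq), with the first and last intron bases in capitals:
antisense of ABI5, 5′ end of the intron, chr2:15204158-15204429, plus strand: ccattgtcaagccaaGTaagcatttctgtt
antisense of ABI5, 3′ end of the intron: ttgttgttgttgcAGctagaagaggaagtg
antisense of AT4G25800, 5′ end of the intron, chr4:13127739-13127833, minus strand: agcaaatccatatcgGTaagtgatgttgtt
antisense of AT4G25800, 3′ end of the intron: gttattatcatgaAGctccacaatctgtgc
antisense of GORK, 5′ end of the intron, chr5:14889427-14889853, plus strand: aaattgttgatacagGTaatcttgaagctc
antisense of GORK, 3′ end of the intron: gtcttctgataatAGtacaaatgaggctcc
antisense of AT1G05577, 5′ end of the intron, chr1:1662816-1662906, plus strand: aatgcatcttctcagGTttgaacaacttcc
antisense of AT1G05577, 3′ end of the intron: agtgatataaagcAGagcttacgagcataa

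Antisense loci were weakly expressed. The mean over all libraries of a table, in CPM (counts scaled to library size with TMM factors), had a median of 0.330 CPM in the zeocin table and 0.282 CPM in the UV-C table, where all loci had medians of 9.97 and 5.53 CPM. Per length, the medians were 0.439 and 0.374 RPKM, against 6.32 and 3.68 RPKM for all loci. The default filter of edgeR on low counts left 148 of 260 zeocin and 180 of 349 UV-C loci in the tests, so 112 and 169 were not tested. Loci that passed only because they are high in 1 group had to differ. The counts of calls below are therefore read as descriptions beside the same counts over all loci. Medians over tested loci or pairs are descriptions for the same reason.

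The zeocin comparison asked which antisense RNAs differed after 3 h of the drug. With edgeR's quasi-likelihood test and a Benjamini-Hochberg adjusted p below 0.05 over all 19447 loci tested, 37 antisense loci were called, 30 higher and 7 lower. Over all loci tested, 27.0% were called, 15.0% higher and 12% lower. Of the 148 antisense loci tested, 25% were called, 20.3% higher and 4.73% lower, so the share called was near that of all loci and its higher part was larger. A change of at least 1 on the log2 scale was met by 25 of the higher and 5 of the lower antisense loci, against 5.16% and 2.09% of all loci tested. The median log2 fold change of the tested antisense loci was 0.14, and that of all loci tested was -0.02.

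Loci could be named for large rises or falls only if their treated and mock groups did not overlap. Among the 12 loci named for the largest rises, the antisense RNA of DRP4C, a dynamin-related protein gene, had the highest level after zeocin. This unspliced locus of 2341 bases (chr1:22291520-22293860, minus strand) covered 95.6% of the host and ran past its 5′ end. It had 16.3, 21.1, 16.9, 18.0 and 17.1 CPM in the zeocin libraries, against 0.230, 0, 0, 0 and 0.0923 CPM in mock. The groups did not overlap, and the log2 fold change was 8.09 ± 0.42 (SE, adjusted p = 3.2e-08, edgeR). No locus held DRP4C itself.

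Opposite AT4G22250, a RING/U-box protein gene, the RNA had 3.78, 5.72, 4.84, 4.56 and 6.89 CPM after zeocin, against 0, 0.0316, 0, 0 and 0.0923 CPM in mock. Every zeocin library lay far above every mock library (log2 fold change 7.47 ± 0.45, adjusted p = 1.26e-08, edgeR). Its start (chr4:11767641-11768555, plus strand) lies 219 bases from that of AT4G22240, a divergent gene for a plastid fibrillin, which rose by 0.79 ± 0.10 on the log2 scale.

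In 4 named loci the 5 mock libraries held no fragment at all. The RNA opposite AT1G09176 (chr1:2963886-2964641, minus strand) had 1.24, 1.63, 1.71, 1.45 and 1.18 CPM after zeocin and 0 CPM in each mock library. Against a floor of 3 counts over the mock group, it was at least 93.5-fold higher. The same bound was 74.4-fold for the RNA of AT2G19290, 51.5-fold for that of the pseudogene AT5G42323 and 47.8-fold for that of AT5G37950, a UDP-glycosyltransferase gene.

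The antisense RNA of ABI5, the bZIP factor of abscisic acid responses in seeds and seedlings, was the 1 risen locus on the list of hosts with described antisense RNAs. It starts beyond the 3′ end of ABI5 (chr2:15203902-15204786, plus strand), is spliced at the intron shown above and overlaps 4.30% of the host. It had 1.53, 1.17, 0.710, 1.32 and 1.21 CPM after zeocin, against 0.0574, 0, 0, 0 and 0 CPM in mock, where 1 library alone held its 2 counts. The ratio of pooled counts was 113 (exact 95% interval 30.8 to 936). The locus that holds ABI5 itself rose too, by 1.53 ± 0.35 on the log2 scale (adjusted p = 0.00445, edgeR), with 0.782 CPM after zeocin and 0.268 CPM in mock.

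DOG1, the other host on that list, carries its antisense locus inside the gene (chr5:18590197-18590797, plus strand). Its RNA had 0.289, 0.327, 0.367, 0.463 and 0.277 CPM after zeocin, against 0.488, 1.01, 0.566, 0.424 and 0.784 CPM in mock. The groups overlapped by 1 library, and the log2 fold change of -0.92 ± 0.36 missed the threshold (adjusted p = 0.069, edgeR), with a call under DESeq2.

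The RNA of the pseudogene AT3G27997 (chr3:10400297-10401806, plus strand) had counts in every mock library. It had 11.7, 16.7, 13.8, 12 and 10.5 CPM after zeocin, against 0.689, 0.348, 0.690, 0.566 and 0.784 CPM in mock (log2 fold change 4.37 ± 0.20, adjusted p = 3.98e-10, edgeR). Opposite TT7, the flavonoid 3′-hydroxylase gene, the RNA had 2.48, 3.53, 2.30, 2.31 and 3.34 CPM after zeocin, against 0, 0.0316, 0.148, 0.165 and 0.0692 CPM in mock. In neither pair did a mock library reach any zeocin library. TT7 itself averaged 0.715 CPM after zeocin and 0.756 CPM in mock (log2 fold change -0.09 ± 0.34, adjusted p = 0.877, edgeR). The antisense RNA of ABCG38, an ABC transporter gene, starts inside the host and passes its 5′ end. It had 0.520, 1.12, 0.269, 0.826 and 0.980 CPM after zeocin, against 0, 0.0632, 0.0493, 0 and 0 CPM in mock, and ABCG38 itself rose by 3.33 ± 0.35 on the log2 scale (adjusted p = 5.92e-06, edgeR). The spliced RNA opposite the calmodulin-binding protein gene AT4G25800 and the RNA opposite AT5G03550 rose by 3.36 ± 0.45 and 3.04 ± 0.36.

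The falls after zeocin were smaller. Among the named falls, the largest was that of the RNA opposite AT5G55680 (chr5:22547483-22548547, plus strand), with 0.347, 0.584, 0.392, 0.231 and 0.277 CPM after zeocin, against 1.41, 1.26, 1.40, 0.825 and 1.18 CPM in mock. Its groups did not overlap (log2 fold change -1.70 ± 0.31, adjusted p = 0.000939, edgeR). The antisense RNA of RAS1, a gene of the response to abscisic acid and salt, fell by 1.45 ± 0.39 and that of IPT1, which makes cytokinin precursors, by 1.11 ± 0.31. The RNAs opposite the xylulose kinase gene XK-2 (-1.09 ± 0.35), AT5G14690 (-0.84 ± 0.29) and AT1G04540 (-0.62 ± 0.19) passed the threshold with all libraries. The call was lost without any 1 of 5 libraries for XK-2, of 9 for AT5G14690 and of 2 for AT1G04540, and for AT5G14690 also with no filter on low counts and with a replicate block.

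**Figure D2:**
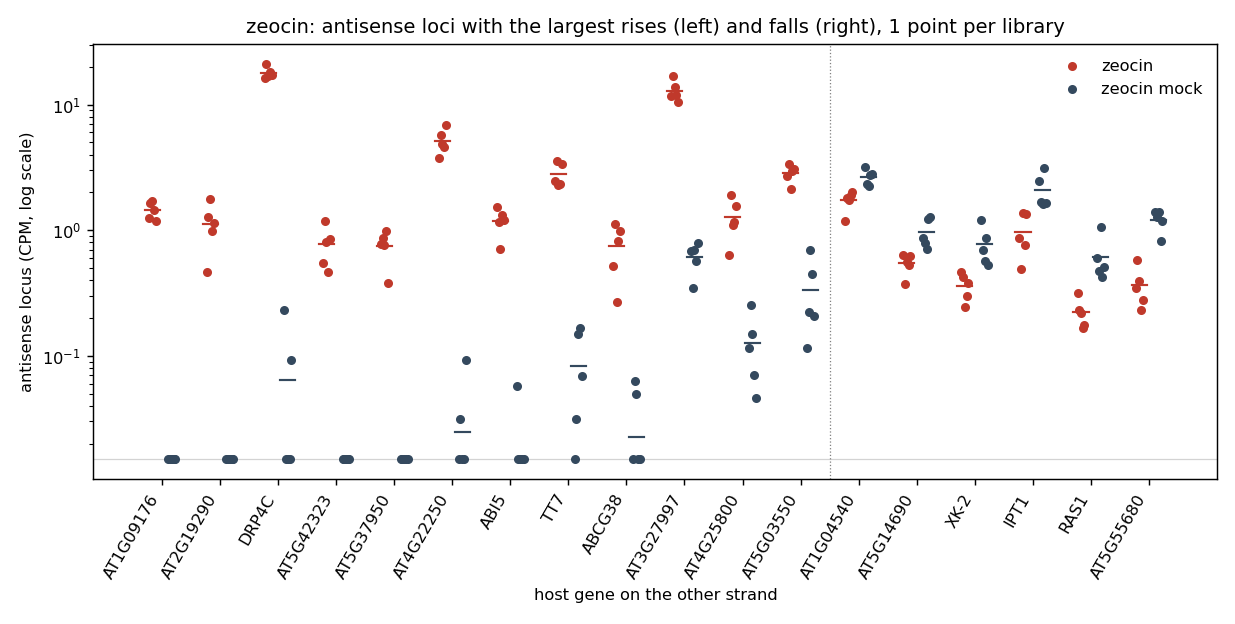
CPM (y axis, log scale) of the antisense loci with the 12 largest rises and 6 largest falls after zeocin, by host gene (x axis), with 1 point per library, zeocin left of its mock, and a line at the group mean. Points on the grey line are libraries with 0 counts, as for all 5 mock libraries of AT1G09176. Zeocin and mock points do not overlap at any locus shown, which the rule that named the loci required.

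The UV-C comparison gave a much wider response. At an adjusted p below 0.05 over all 19587 loci tested, 152 antisense loci were called, 133 higher and 19 lower. Over all loci tested, 64.4% were called, 33.6% higher and 30.9% lower. The 180 antisense loci tested were thus called higher in 73.9% of cases and lower in 10.6%. A change of at least 1 on the log2 scale was met by 130 higher and 16 lower antisense loci, against 18.2% and 10.1% of all loci tested. Over all 349 antisense loci, tested or not, every UV-C library lay above every mock library at 231, and the same held for 35.2% of all loci. The zeocin libraries did so at 35 of 260 antisense loci, and at 11% of all loci.

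Many of these RNAs had no trace in mock. After assembly of the UV-C experiment, 92 of 349 antisense loci held 0 counts in all 3 mock libraries, and 7 held 0 counts in all 3 UV-C libraries. Of all 22818 loci of that table, 802 were at 0 in mock and 194 after UV-C. In the zeocin experiment 15 of 260 antisense loci were at 0 in all mock libraries and 1 in all zeocin libraries, against 75 and 17 of all 20880 loci. Each UV-C library had counts at 329 to 333 of the 349 antisense loci and each of its mock libraries at 200 to 209, with 17383748 to 17737527 counts on chromosomes 1 to 5 after UV-C and 17464740 to 19680898 in mock. Loci with RNA after UV-C alone could enter the assembly, so these counts at 0 are descriptions only. On the log2 scale, the median fold change of the 180 tested antisense loci was 5.05, or 4.47 with groups at 0 counts set to their bound, and that of all loci tested was 0.00. Of those 180 loci, 38 held 0 counts in every mock library and passed the filter through the UV-C libraries, so this median is a description as well.

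**Figure D3:**
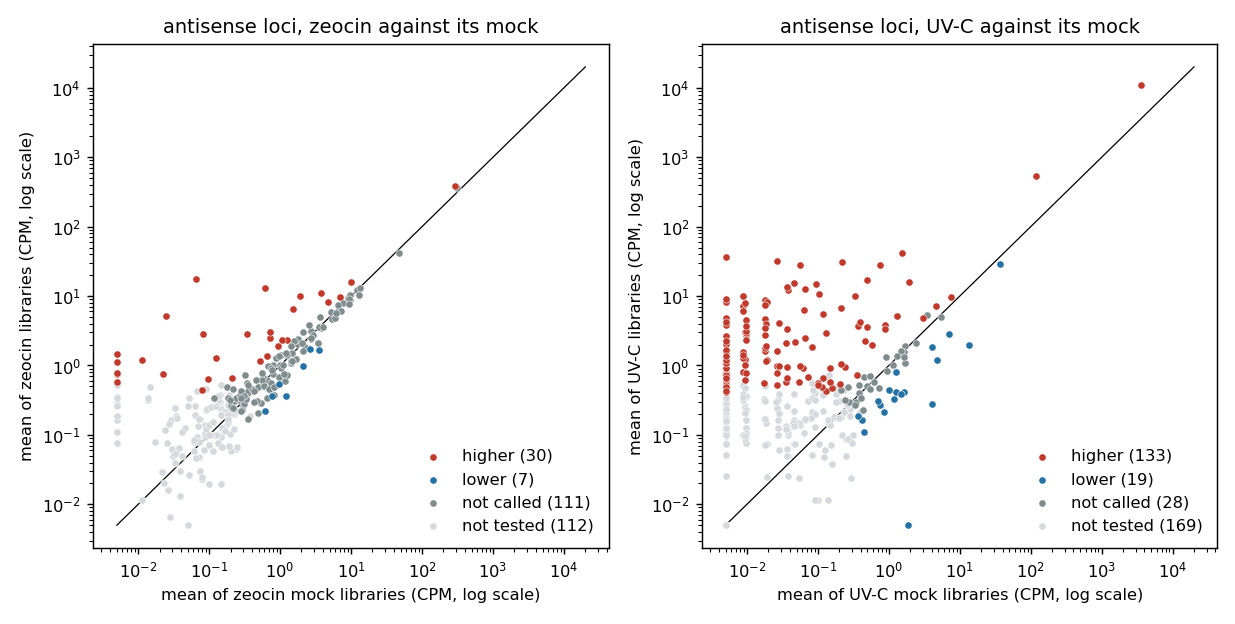
Mean CPM of each antisense locus in treated libraries (y axis, log scale) against its mock libraries (x axis, log scale) for zeocin (left) and UV-C (right), coloured by the call, with means of 0 drawn at the lowest point of the axis and a line at equal levels. In the zeocin panel 30 loci are called higher and 7 lower. Some zeocin loci not called or not tested lie off the line too, among them untested loci with 0 counts in every mock library. The 133 UV-C loci called higher spread over the upper left.

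The antisense RNA inside GORK, which encodes the outward potassium channel of guard cells, had the highest UV-C level of the 12 named rises. It had 32.2, 39.9 and 39.0 CPM after UV-C and no count in the 3 mock libraries, so it was at least 1349-fold higher. The locus is spliced, with exonic length 236 bases (chr5:14889248-14889910, plus strand), and overlaps 3.94% of the host. GORK itself averaged 1 CPM after UV-C and 1.05 CPM in mock (log2 fold change -0.06 ± 0.25, adjusted p = 0.853, edgeR), from a locus whose exons do not overlap those of the antisense RNA. Per length, the antisense RNA averaged 157 RPKM after UV-C and GORK 0.908 RPKM. The gene AT5G37490, an ARM repeat protein gene on the same strand as the antisense RNA, ends 97 bases upstream of it, and no locus of the table held that gene.

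The RNA opposite AT4G37380, a tetratricopeptide repeat protein gene, was next in level. It had 29.8, 33.8 and 31.5 CPM after UV-C, against 0.0520, 0.0288 and 0 CPM in mock. The ratio of pooled counts was 1155 (exact 95% interval 395 to 5603). It covers 95.5% of the host over 2153 bases (chr4:17571911-17574063, plus strand) and starts 168 bases from CYP81D8, a cytochrome P450 gene on the other strand. CYP81D8 averaged 123 CPM after UV-C and 2.59 CPM in mock, a rise of 5.56 ± 0.18 on the log2 scale (adjusted p = 2.88e-08, edgeR).

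The other named rises had lower levels. The antisense RNA of JRG21, a jasmonate-regulated gene, had 9.23, 9.63 and 8.18 CPM after UV-C and 0 CPM in mock, at least 329-fold higher. That of CRCK1, a calmodulin-binding receptor-like cytoplasmic kinase gene, had 8.51, 10.5 and 11.2 CPM after UV-C, against 0.0260, 0 and 0 CPM in mock, a ratio of pooled counts of 1098 (exact 95% interval 197 to 43434). CRCK1 itself rose by 1.73 ± 0.18 on the log2 scale (adjusted p = 1.29e-05, edgeR). The RNA opposite MYB3R2, a cell cycle transcription factor gene of the MYB3R family, was at least 138-fold higher than in mock, with 3.29, 4.38 and 3.65 CPM after UV-C. The bounds were 303-fold opposite AT1G05577, 173-fold opposite AT3G51440, 151-fold opposite AT4G29770, 147-fold opposite AT1G30814 and 96.7-fold opposite the F-box gene AT1G32140. The RNAs opposite AT1G64290 and AT3G25240 had 1 mock count each, with ratios of 1098 and 877. Every UV-C library lay above every mock library at all 12, as the rule that named them required.

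The falls after UV-C included an RNA that was lost. The RNA opposite the pseudogene AT1G69140 (chr1:25991413-25992155, plus strand) had no count after UV-C, against 1.07, 2.65 and 1.90 CPM in mock. The RNA opposite AT1G13920, a remorin gene, had 0.341, 0.278 and 0.230 CPM after UV-C, against 4.50, 4.23 and 3.62 CPM in mock (log2 fold change -3.84 ± 0.23, adjusted p = 2.38e-07, edgeR). The RNA opposite the non-coding gene AT5G03615 had 1.10, 1.29 and 3.46 CPM after UV-C, against 12.9, 10.6 and 16.3 CPM in mock. The RNA opposite HSL2, a receptor kinase gene of floral organ abscission, fell by 2 ± 0.22 on the log2 scale, close to the falls opposite AT3G07675 (-2.03 ± 0.35) and AT1G52618 (-1.98 ± 0.27).

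**Figure D4:**
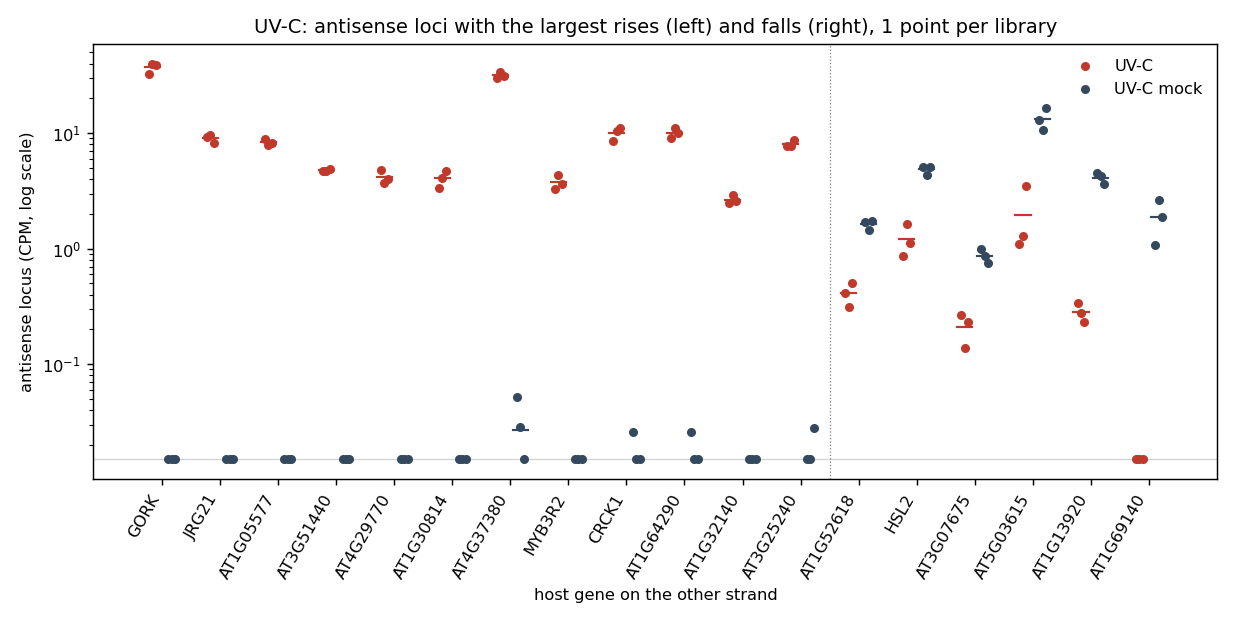
CPM (y axis, log scale) of the antisense loci with the 12 largest rises and 6 largest falls after UV-C, by host gene (x axis), with 1 point per library, UV-C left of its mock, and a line at the group mean. Points on the grey line are libraries with 0 counts, which include all 3 mock libraries of GORK and all 3 UV-C libraries of AT1G69140.

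Host genes of other kinds were also found opposite RNAs that rose after UV-C, named here after their values were seen. All 3 microRNA genes with an antisense locus in the UV-C table, MIR827, MIR172e and MIR391, lay opposite loci called higher, at 1.60, 1.40 and 0.651 CPM after UV-C, against 0.0269, 0.00867 and 0.0368 CPM in mock. The RNA opposite WRKY46, a stress-responsive transcription factor gene, averaged 3.89 CPM after UV-C and 0.0186 CPM in mock, and WRKY46 itself rose by 6.17 on the log2 scale.

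Levels per length, averaged over all libraries of the UV-C experiment, were highest at a few short loci, all 5 of which rose after UV-C. The UV-C libraries count in that ranking, so a rise in itself helps a locus to enter it. In the UV-C table, the locus opposite AT7SL-1 (chr4:1318802-1319185, minus strand) had 11153, 9266 and 12620.3 CPM after UV-C, against 3635, 3172 and 3796 CPM in mock (log2 fold change 1.64 ± 0.12, adjusted p = 1.55e-06, edgeR). The host is annotated as a gene for 7SL RNA, the RNA of the signal recognition particle, which RNA polymerase III makes, and whether this abundant RNA is 7SL RNA itself cannot be told apart here from an antisense RNA. In the zeocin table the same place gave 362 CPM after zeocin and 312 CPM in mock (adjusted p = 0.345, edgeR). The locus opposite AT5G53740 had 574, 403 and 629 CPM after UV-C, against 138, 122 and 99.1 CPM in mock, and its 1 intron did not have GT and AG at its ends. That intron, of 2071 bases, began with TT and ended with CT. The sequence around its 3′ end recurs at the start of the locus, on the same strand. Whether this RNA from a repeated sequence is an antisense RNA of AT5G53740 was not tested. The loci opposite AT5G44306 (41.4 CPM after UV-C and 1.52 CPM in mock) and AT5G10340 (27.7 and 0.754 CPM) completed the top 5 with GORK.

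In the zeocin table the highest level was that of a locus of 287 bases inside BXL3, a beta-xylosidase gene of cell walls. It had 440.0, 369.7, 353, 394 and 393 CPM after zeocin, against 284, 218, 251, 294 and 416 CPM in mock. The groups overlapped at 1 mock library, and the call (log2 fold change 0.42 ± 0.14, adjusted p = 0.0454, edgeR) was lost without any 1 of 9 libraries, with upper quartile factors and with library sizes from chromosomes 1 to 5. Its sequence aligned to that of the zeocin locus opposite AT7SL-1 with 76.9% identical bases over 286 positions (TAIR10.1), so that the doubt about 7SL RNA holds here too. The loci opposite AT5G49440 (42.1 CPM after zeocin and 47.9 CPM in mock) and AT2G07662 (12.1 and 12.3 CPM) were not called.

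Of all counts, antisense loci made up 0.114% ± 0.00945 after zeocin and 0.0965% ± 0.0130 in mock (SD, n = 5 each). After UV-C the share was 1.14% ± 0.131 and in its mock 0.409% ± 0.0402 (SD, n = 3 each). A large part of both zeocin experiment shares came from the loci inside BXL3 and opposite AT7SL-1. Whether these are antisense RNAs is in doubt, as given above. Without the BXL3 locus the shares were 0.0763% ± 0.00656 after zeocin and 0.0665% ± 0.00594 in mock, and the AT7SL-1 locus is still in them. Most of both UV-C experiment shares came from the single AT7SL-1 locus. Without it the shares were 0.117% ± 0.00788 after UV-C and 0.0293% ± 0.00131 in mock, with 3 of 3 UV-C libraries above all mock libraries. A large part of what remained in either group was the locus opposite AT5G53740, whose levels and repeated sequence are given above. Unannotated loci that overlap no gene on either strand, 476 in the UV-C table, took 0.0347% after UV-C and 0.0138% in mock.

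Host genes and their antisense RNAs were compared where both were tested. Antisense loci were called higher after UV-C in 73.9% of tests and all loci in 33.6%, so many pairs in the same direction are to be read against those shares. Among the 30 UV-C pairs in which both were tested, both were called higher in 19, both lower in 1, only the antisense locus in 5, only the host in 3 and the 2 in opposite directions in 2. Among the 32 zeocin pairs, both were called higher in 3 (ABI5, ABCG38 and AT4G37022), both lower in 1 (AT3G63450), only the antisense locus in 8, only the host in 8 and neither in 12. In 20 of the 30 zeocin and 100 of the 133 UV-C loci called higher, no locus held the host gene on its own strand. The exons of the pair overlapped in 19 of the 51 zeocin and 4 of the 64 UV-C pairs, so a host was mostly counted over another part of its length. Per length, the antisense RNA of the tested UV-C pairs had a median of 85.3% of the level of its host after UV-C and 2.04% in mock. For zeocin these medians were 125% after the drug and 41.7% in mock. Antisense loci high in treated libraries alone could pass the filter, so these medians are descriptions only.

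The opposite moves concerned LSF2 and AT3G49050 after UV-C. LSF2 encodes a glucan phosphatase of starch breakdown. Its antisense RNA, spliced and starting beyond the host's 3′ end, had 2.72, 2.5 and 3.15 CPM after UV-C, against 0.0260, 0.0288 and 0 CPM in mock (ratio of pooled counts 152, exact 95% interval 41.5 to 1260). LSF2 itself fell to 3.92 CPM after UV-C, against 6.45 CPM in mock (log2 fold change -0.71 ± 0.12, adjusted p = 0.000536, edgeR). The RNA opposite AT3G49050, a hydrolase gene, had 4.58, 3.27 and 4.99 CPM after UV-C, against 0.650, 0.259 and 0.251 CPM in mock, while its host changed by -0.49 ± 0.14 (adjusted p = 0.0121, edgeR). In both pairs the UV-C and mock libraries of the antisense RNA were well apart. Neither pair had overlapping exons.

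A neighbouring gene read away from the antisense RNA on the other strand was common. Such a divergent gene other than the host started within 1000 bases of 86 zeocin and 121 UV-C antisense loci. Among 54 UV-C cases with both tested, both were called higher in 31, at a median distance of 278 bases, and the antisense locus was higher beside an uncalled neighbour in 12 and beside a lower one in 3. Of those 54 neighbours, 34 were called higher in all. Among 40 zeocin cases, both were called higher in 7, out of 10 higher antisense loci and 10 higher neighbours. The largest zeocin case was AT1G09176, whose antisense RNA starts 382 bases from SARA1A, a gene for a small GTPase of vesicle transport. SARA1A averaged 5.19 CPM after zeocin and 0.11 CPM in mock, a rise of 5.48 ± 0.35 on the log2 scale (adjusted p = 2e-08, edgeR). After UV-C, AGC2-1, a protein kinase gene of oxidative stress signalling, averaged 72.4 CPM and 0.883 CPM in mock, 845 bases from the RNA opposite AT3G25240. AT3G10930, 766 bases from the RNA opposite LSF2, averaged 108 CPM after UV-C and 1.16 CPM in mock.

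An upstream gene on the same strand ended within 1000 bases of 63 zeocin and 78 UV-C antisense loci. Both were tested in 15 zeocin cases, with both called higher in 0 and the antisense locus higher beside an uncalled neighbour in 3. Among 14 UV-C cases the antisense locus was higher in 12, beside a higher neighbour in 7, a lower one in 2 and an uncalled one in 3.

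**Figure D5:**
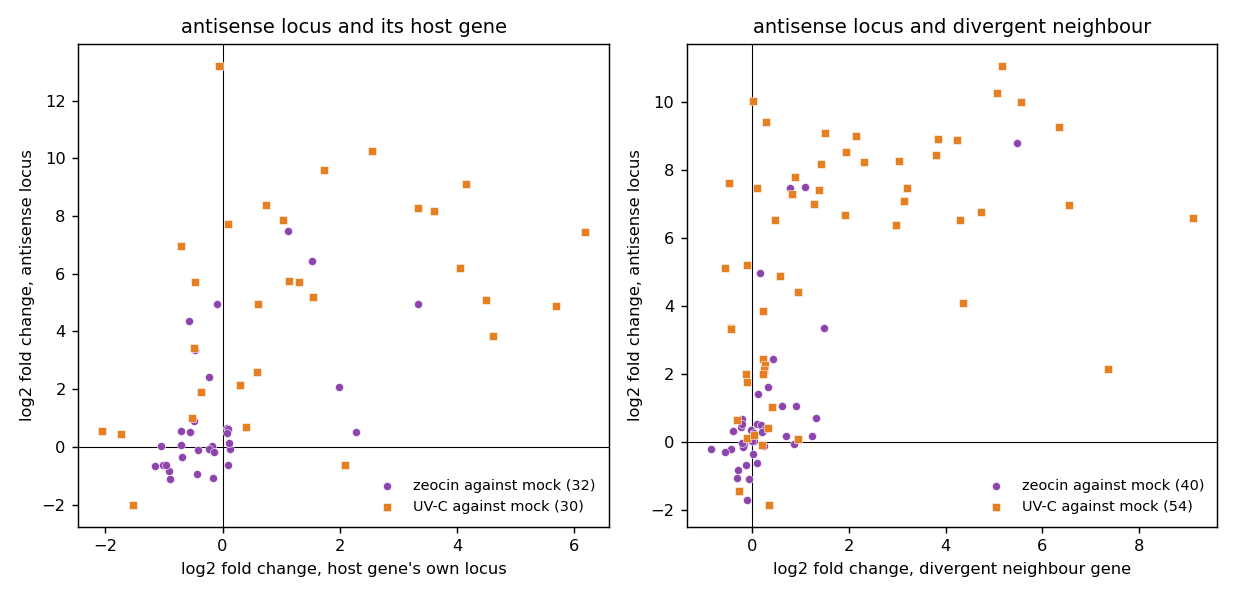
Log2 fold change of the antisense locus (y axis) against that of the host gene's own locus (left, x axis) and of the divergent neighbour within 1000 bases (right, x axis), with 1 point per tested pair, circles for zeocin and squares for UV-C. UV-C squares lie mostly in the upper right of both panels, and the highest square of the host panel is GORK, whose antisense RNA rose while GORK itself had a log2 fold change of -0.06.

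Sequence before the antisense loci was searched for 3 motifs, in a window of 300 bases that runs from 250 bases before the assembled start, on the strand of the locus. The SOG1 motif, CTT and AAG with 7 bases of any kind between them, is bound by SOG1, the transcription factor of the plant DNA damage response. It lay in the windows of 12 of 30 antisense loci called higher after zeocin (40%), in 0 of 7 called lower and in 33 of 223 not called or not tested (14.8%). Of all zeocin loci, 12.3% held it, and of all called higher after zeocin, 20%. Among the 12 named rises it was found in 7, those of DRP4C, AT2G19290, ABI5, ABCG38, AT4G25800, TT7 and AT5G42323. After UV-C it lay in 19 of 133 antisense loci called higher (14.3%) and in 11.9% of all loci. Motifs were read on both strands and may overlap each other, these shares were not tested, and a match shows the letters only.

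The windows of 3 of these loci, read from TAIR10.1 (RefSeq), are shown with the SOG1 motif in capitals. That of ABCG38 has 3 copies, beginning 142, 100 and 15 bases before the start, while ABI5 has 1 copy 4 bases before the start and AT2G19290 1 copy 176 bases before it:
antisense of ABCG38, chr3:12599733-12600032, plus strand: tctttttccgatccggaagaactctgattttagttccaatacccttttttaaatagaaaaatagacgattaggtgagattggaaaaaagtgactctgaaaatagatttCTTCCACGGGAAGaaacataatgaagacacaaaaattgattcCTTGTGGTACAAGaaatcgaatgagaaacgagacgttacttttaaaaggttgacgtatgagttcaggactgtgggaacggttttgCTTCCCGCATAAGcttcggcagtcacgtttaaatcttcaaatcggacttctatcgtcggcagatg
antisense of ABI5, chr2:15203652-15203951, plus strand: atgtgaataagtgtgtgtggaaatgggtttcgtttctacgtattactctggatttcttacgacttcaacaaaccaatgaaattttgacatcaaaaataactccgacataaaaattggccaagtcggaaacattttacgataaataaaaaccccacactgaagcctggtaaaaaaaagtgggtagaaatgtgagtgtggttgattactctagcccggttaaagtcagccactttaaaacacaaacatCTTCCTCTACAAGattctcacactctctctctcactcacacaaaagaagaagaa
antisense of AT2G19290, chr2:8366421-8366720, plus strand: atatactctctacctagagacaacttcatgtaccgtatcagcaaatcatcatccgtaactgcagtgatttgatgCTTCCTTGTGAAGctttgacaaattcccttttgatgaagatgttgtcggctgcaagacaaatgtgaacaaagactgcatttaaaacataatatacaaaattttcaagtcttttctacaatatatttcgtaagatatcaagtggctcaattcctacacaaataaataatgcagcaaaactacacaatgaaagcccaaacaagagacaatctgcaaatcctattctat

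The W-box, TTGACC or TTGACT, is bound by WRKY factors of defence and stress responses. It was found in 79 of 133 antisense loci called higher after UV-C (59.4%), in 4 of 19 called lower (21.1%), and in 75 of 197 not called or not tested (38.1%). All UV-C loci held it in 32.9% of windows and all called higher in 41.7%. After zeocin it was found in 13 of 30 called higher (43.3%), against 32.7% of all loci and 44.2% of all called higher. The heat shock element, GAA and TTC with 2 bases of any kind between them, is bound by heat shock factors and lay in 30 of 133 antisense loci called higher after UV-C (22.6%), against 12.5% of all loci and 15.7% of all called higher. After zeocin it lay in 3 of 30 (10%), against 12% of all loci and 18.3% of all called higher.

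The windows of 3 loci that rose after UV-C are shown with W-boxes in capitals. AT4G37380 has 4, in a window that covers the stretch up to the divergent CYP81D8, AT4G29770 has 3 and CRCK1 has 2:
antisense of AT4G37380, chr4:17571661-17571960, plus strand: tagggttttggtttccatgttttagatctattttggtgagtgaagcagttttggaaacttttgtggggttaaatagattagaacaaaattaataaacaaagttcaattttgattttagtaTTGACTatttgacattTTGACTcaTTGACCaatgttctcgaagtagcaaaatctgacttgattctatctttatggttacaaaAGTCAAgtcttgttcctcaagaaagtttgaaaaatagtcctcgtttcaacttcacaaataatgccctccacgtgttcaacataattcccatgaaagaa
antisense of AT4G29770, chr4:14577663-14577962, minus strand: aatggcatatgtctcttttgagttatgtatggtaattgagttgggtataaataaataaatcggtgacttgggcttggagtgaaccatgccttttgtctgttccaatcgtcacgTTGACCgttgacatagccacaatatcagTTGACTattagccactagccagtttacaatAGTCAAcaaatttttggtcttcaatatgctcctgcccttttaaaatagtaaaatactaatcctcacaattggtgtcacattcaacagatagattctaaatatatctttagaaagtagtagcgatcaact
antisense of CRCK1, chr5:23798212-23798511, minus strand: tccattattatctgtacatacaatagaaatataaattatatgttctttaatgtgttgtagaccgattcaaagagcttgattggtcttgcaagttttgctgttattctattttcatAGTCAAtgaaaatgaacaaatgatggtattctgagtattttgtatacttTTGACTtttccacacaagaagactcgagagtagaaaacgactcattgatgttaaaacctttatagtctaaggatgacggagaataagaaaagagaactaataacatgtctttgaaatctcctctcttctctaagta

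Both experiments assembled antisense RNAs at some of the same places. With a reciprocal overlap of at least 50% on the same strand, 78 loci were held by both tables, 30% of the zeocin and 22.3% of the UV-C antisense loci. Both tables tested 37 of them. They were called higher in both comparisons in 5, higher after zeocin and lower after UV-C in 1, and called in neither in 11. Levels are not compared across tables, since each was counted on its own assembly, and the difference between the 2 responses was not tested.

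DRP4C was the host of the strongest RNA among the 5. After UV-C its antisense locus had 9.53, 8.90 and 7.99 CPM, against 0.0260, 0 and 0.0279 CPM in mock (ratio of pooled counts 481, exact 95% interval 133 to 3977), beside the zeocin values given above. The RNA opposite AT4G15150, a glycine-rich protein gene, had 7.66, 12.9, 10.3, 6.25 and 12.4 CPM after zeocin, against 1.64, 1.49, 1.97, 1.56 and 3.02 CPM in mock, and 0.984, 0.834 and 1.08 CPM after UV-C, against 0.0260, 0.0288 and 0.0558 CPM in mock. Treated and mock libraries did not overlap in either experiment. The log2 fold changes were 2.35 ± 0.24 after zeocin and 4.57 ± 0.44 after UV-C.

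The RNAs opposite AT5G00560 (1.12 ± 0.28 after zeocin and 2.84 ± 0.34 after UV-C), AT1G55990 (0.51 ± 0.15 and 2.26 ± 0.35) and AT4G33610 (0.70 ± 0.15 and 1.77 ± 0.52) were the others higher in both. The 2 loci at AT5G00560 overlapped by 53.7% of the longer span. At AT4G33610 the UV-C groups overlapped, with 0.870, 2.05 and 3.07 CPM after UV-C against 0.962, 0.403 and 0.362 CPM in mock, and the call was lost without 1 UV-C library or either of 2 mock libraries. After zeocin the groups overlapped at all 3 loci: 2 zeocin libraries lay below 1 mock library at AT1G55990, where the call was lost without 1 zeocin library, and 1 did so at each of the others. The 1 opposite case was AT1G13920, where the UV-C locus fell as given above. The 2 assembled loci there overlapped by 63.9% of the longer span (chr1:4758661-4760245 for zeocin, chr1:4758869-4759881 for UV-C, minus strand). An intron of 420 bases was assembled in the UV-C locus alone, so the 2 may not be the same RNA. The zeocin locus had 1.94, 1.42, 1.69, 2.18 and 2.39 CPM after zeocin, against 1.29, 0.885, 1.5, 0.636 and 0.323 CPM in mock (log2 fold change 1.05 ± 0.34, adjusted p = 0.0327, edgeR). There 1 zeocin library lay below 1 mock library and the call was lost without any 1 of 4 libraries.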

How the data were processed

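Total RNA was depleted of ribosomal RNA and made into stranded libraries, per the labels' protocols. Trim Galore 0.11.8, STAR 2.7.1a, StringTie 2.1.5 and Subread 2.0.1 are named, with TAIR10, in the submitters' processing notes. The deposited values are raw fragment counts per assembled locus, counted reversely stranded by the authors with featureCounts, per the file headers, and each experiment was counted on its own assembly. The score column of the deposited assemblies was not used, only their positions. Loci were aligned with a local alignment of match 1, mismatch -1 and gap -2. Fragments matching several places or loci were not counted, so near-identical copies are under-measured. Genes came from RefSeq TAIR10.1, and 97.0% of zeocin and 99.2% of UV-C assembled introns matched annotated ones. Loci were tested with edgeR 4.0.16 (TMM, filterByExpr, robust quasi-likelihood fit) on all loci of a table, treated against its own mock, and the SE is the log2 fold change divided by the square root of F. Folds against a group at 0 use a floor of 3 counts over the group, and with 1 to 3 mock counts the ratio of pooled counts has an exact 95% interval; both reflect counting error alone. Antisense loci were named by rule: with a mean of at least 0.3 CPM and no overlap between groups, the 12 largest called rises and 6 largest falls; the 5 highest levels per length; loci called in both tables; pairs called in opposite directions; and hosts with described antisense RNAs. The members and lists were chosen with earlier results of these data known. On simulated counts with the zeocin libraries' means, 90.6% of loci raised and 79.2% of loci lowered by 1 on the log2 scale were called, and with the UV-C libraries' means 90.2% and 83.6%. The changed loci were drawn from all loci tested, so these rates do not describe the antisense loci, which had mostly lower levels. Alternatives were upper quartile factors, library sizes from the 5 chromosomes, DESeq2 1.42.0, other filters, a replicate block, other member rules and leaving out each library.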

Additional observations from a re-analysis of the deposited data

Results flagged for a closer look

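In 58 groups of values screened, a single library stood far from the others of its group in 2, where chance flags about 1 group in 20. Mock library 3 of the zeocin experiment had 1.06 CPM of the antisense RNA of RAS1, and the nearest mock library had 0.603 CPM, a gap of 0.719 of the group's range. Mock library 1 of the same experiment had 0.0574 CPM of the antisense RNA of ABI5, which rests on 2 counts, and the other mock libraries had 0. The UV-C groups of 3 are too small for this screen.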

How the results depend on the processing

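No called result changed direction under the alternatives run. The uncalled locus opposite AT2G07662, at -0.02 on the log2 scale, was just above 0 without zeocin library 4 and without mock library 3 of that experiment. Calls depended on the filter on low counts. With at least 1 CPM required, 21 zeocin loci were called (18 higher, 3 lower) and 89 UV-C loci (76 higher), and 2 zeocin and 11 UV-C pairs were called in the same direction. With no filter, 46 zeocin loci were higher, 244 UV-C loci were called (220 higher), 4 UV-C pairs moved in opposite directions and 14 loci held by both tables were called in both. Upper quartile factors gave 1 zeocin pair in opposite directions. Loci with no own-strand gene within 500 bases gave 2 zeocin pairs in the same direction and shares of counts of 0.0693% after zeocin and 0.0554% in mock, and 0.11% after UV-C and 0.0271% in mock. Pairs with overlapping exons gave 2 in the same direction in either experiment and 0 in opposite directions after UV-C. With nuclear counts as denominator the shares were 0.180% and 0.147%, and 1.88% and 0.758%. An alternative added after seeing the data, without the most abundant locus, gave 0.0763% after zeocin and 0.0665% in mock, and 0.117% after UV-C and 0.0293% in mock. Without 1 library at a time, 33 to 42 zeocin loci were called (26 to 36 higher, 4 to 8 lower, with 4 lower without mock library 1 or 4), with 0 to 1 pairs in opposite directions (1 without zeocin library 4 or 5, or mock library 2 or 5). For UV-C, 154 to 172 loci were called (135 to 155 higher), with 2 to 5 pairs in opposite directions (5 without mock library 1 and 4 without mock library 2). The replicate block gave 40 zeocin calls (32 higher, 8 lower), 148 UV-C calls (132 higher, 16 lower), 4 and 20 pairs in the same direction, 0 and 3 in opposite directions and 7 loci called in both tables. Libraries of the same number did not consistently deviate together (r from -0.0957 to 0.435 for zeocin and from -0.300 to 0.155 for UV-C), and numbers were not taken as pairs. The 2 highest zeocin values were nevertheless of equal numbers, 0.435 for number 1 and 0.254 for number 3, where unequal numbers reached 0.205. A pairing of these libraries is therefore not excluded, and the replicate block above gives the calls with it. Of 28 zeocin and 29 UV-C loci named, 8 and 1 changed their call under some setting. Low counts limit what could be tested: 112 zeocin and 169 UV-C antisense loci were not.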

Other observations

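Genes of RNA decay, transcript 3′ end formation and transcription elongation were measured beside the antisense loci, as a list of 36 genes that were all tested in both tables. After zeocin 1 was called higher and 0 lower (edgeR, adjusted p below 0.05 over all loci, where 15.0% of all loci were called higher and 12% lower). It was RRP44A, a catalytic subunit of the exosome, with a log2 fold change of 0.24 ± 0.08. After UV-C 10 were called higher and 4 lower, against 33.6% and 30.9% of all loci. SAL1, a phosphatase that removes an inhibitor of 5′ to 3′ exonucleases, averaged 56.4 CPM after UV-C and 27.6 CPM in mock, a rise of 1.03 ± 0.08. CPL1 and FPA rose by 0.71 and 0.55. SSRP1 and SPT16, the subunits of the histone chaperone FACT, rose by 0.28 and 0.37, while the elongation genes SPT6L, SPT5-2 and TFIIS were not called. DCP2, the mRNA decapping enzyme, fell by 0.69 on the log2 scale, RRP6L1 by 0.54, FY by 0.46 and XRN4 by 0.29. The part of these genes in the antisense results was not tested.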
